A study of Homo sapiens with 18 samples.

Results

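The regions described here are the H3K27ac-enriched intervals whose summits lay beside, but not at, the annotated starts of protein-coding genes. Some of the intervals reached the gene start or lay at the start of another transcript, as described below. The peaks of all 6 H3K27ac libraries were merged where they shared at least 1 bp, which gave 55382 regions. A region was placed at the summit of its most significant peak. Of these regions, 5051 (9.12%) had a summit more than 1 kb and up to 5 kb from the nearest protein-coding transcription start site (TSS) and more than 1 kb from every long non-coding RNA TSS, and they are called flanking regions. The TSS was the annotated start of a gene in GENCODE release 44 on hg38. Regions up to 1 kb from a protein-coding TSS (10103, promoter regions) and regions 5 to 100 kb away (29044, distal regions) served for comparison.

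Untreated and drug-treated HEK293T cultures were compared. HEK293T is an established human embryonic kidney line that carries the SV40 large T antigen. The CTRL cells were untreated, and the VPA cells were grown with 1 mM valproic acid for 1 day. Histone tails lose acetyl groups through histone deacetylases (HDACs), several of which are blocked by valproic acid, a drug long used against epilepsy. Each treatment had 3 H3K27ac and 3 CTCF peak lists, and the 6 input samples were not analysed here. Nothing in the labels ties replicates to separate cultures, so the tests measure the spread between these libraries, which may be technical.

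H3K27ac, the acetylation of lysine 27 on histone H3, marks active promoters and enhancers. At an active gene the mark usually spans the nucleosomes on both sides of the TSS, with a dip over the start itself, and reaches further into the gene body than upstream. A separate acetylated interval a few kilobases away can be a proximal enhancer, the edge of a broad promoter domain or the promoter of another transcript of the same gene.

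The H3K27ac lists held 26299 to 29799 peaks in CTRL and 38441 to 40992 in VPA. Read totals were not part of the lists. The background coverage recovered from them was 3.51 to 3.95 fragments in every H3K27ac library. The replicate 1 libraries of both treatments stood apart from the others. At the flanking regions present in all 6 libraries, the median local background was 42.4 fragments in CTRL replicate 1 and 37.1 in VPA replicate 1, against 10.5 to 11.4 in the other 4 libraries. Fold enrichment, the ratio of the summit coverage to that background, was therefore lower in replicate 1 of either treatment. Of the 11 markers of kidney lineage and of this line, 8 had a promoter peak in all 3 CTRL libraries, and PAX2, PAX8 and EYA1 had none. Of the 4 neuronal genes known from this line, 3 had one in all 3 CTRL libraries. None of the 4 blood, 3 liver, 4 heart and muscle and 2 globin markers had a promoter peak in a CTRL library.

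To show what these regions look like, 200 bases of the hg38 plus strand around the summit are printed below for 4 of them, with every CpG dinucleotide in capitals. CpG dinucleotides are marked because their density differed between the groups of flanking regions described below. The first 2 were among the regions with the highest mean fold enrichment. They lay at chr22:38316827-38317026, near CSNK1E, and at chr22:39319164-39319363, near RPL3.
CSNK1E: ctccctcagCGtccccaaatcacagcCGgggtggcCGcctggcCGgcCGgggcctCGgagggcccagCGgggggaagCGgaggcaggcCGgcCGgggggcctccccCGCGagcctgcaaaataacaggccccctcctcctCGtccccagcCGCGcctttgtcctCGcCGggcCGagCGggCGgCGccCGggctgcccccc
RPL3: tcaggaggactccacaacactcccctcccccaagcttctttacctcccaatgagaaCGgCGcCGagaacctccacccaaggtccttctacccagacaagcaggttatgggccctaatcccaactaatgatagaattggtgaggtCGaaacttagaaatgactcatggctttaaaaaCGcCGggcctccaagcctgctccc
The next came from a region with a peak in all 3 VPA libraries and in no CTRL library, at chr3:195914684-195914883 near TNK2.
TNK2: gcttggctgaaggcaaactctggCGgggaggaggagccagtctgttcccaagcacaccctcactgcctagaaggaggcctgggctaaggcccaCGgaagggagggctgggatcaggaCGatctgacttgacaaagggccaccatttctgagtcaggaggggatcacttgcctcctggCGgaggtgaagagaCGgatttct
The last came from a region whose fold enrichment was lower in every VPA library than in every CTRL library, at chr1:160362401-160362600 near NHLH1.
NHLH1: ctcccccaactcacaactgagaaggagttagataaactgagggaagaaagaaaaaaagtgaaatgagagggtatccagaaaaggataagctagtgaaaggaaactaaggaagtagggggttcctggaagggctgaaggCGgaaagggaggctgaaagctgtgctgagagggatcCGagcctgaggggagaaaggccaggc
The CSNK1E stretch held 22 CpG dinucleotides and had a GC content of 79%. The RPL3 stretch held 6, the TNK2 stretch 5 and the NHLH1 stretch 2.

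More flanking regions carried a peak after VPA. The count was 1300, 2075 and 2041 in CTRL replicates 1, 2 and 3, and 2272, 3785 and 3624 in the VPA replicates of the same numbers. The lowest VPA library thus lay above the highest CTRL library. The mean was 1805 ± 438 in CTRL against 3227 ± 831 in VPA (SD, n = 3), a ratio of 1.79, with p = 0.1 in an exact two-sided permutation test, which is the smallest p that 3 libraries against 3 can give. Over the 11 comparisons of this kind made here, the adjusted exact p was 0.275. Within replicate 1 the difference was 972 regions, and within replicates 2 and 3 it was 1710 and 1583. The VPA lists were longer as a whole, and the 5051 regions were made from these same 6 lists. Of them, 2529 had a peak in VPA and none in CTRL, against 169 the other way. The test thus describes the lists and gives no independent support for a gain. When every list was cut to its 26299 most significant peaks, the means were 1606 and 1847 regions, the groups overlapped, and the exact permutation p was 0.4.

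**Figure D1:**
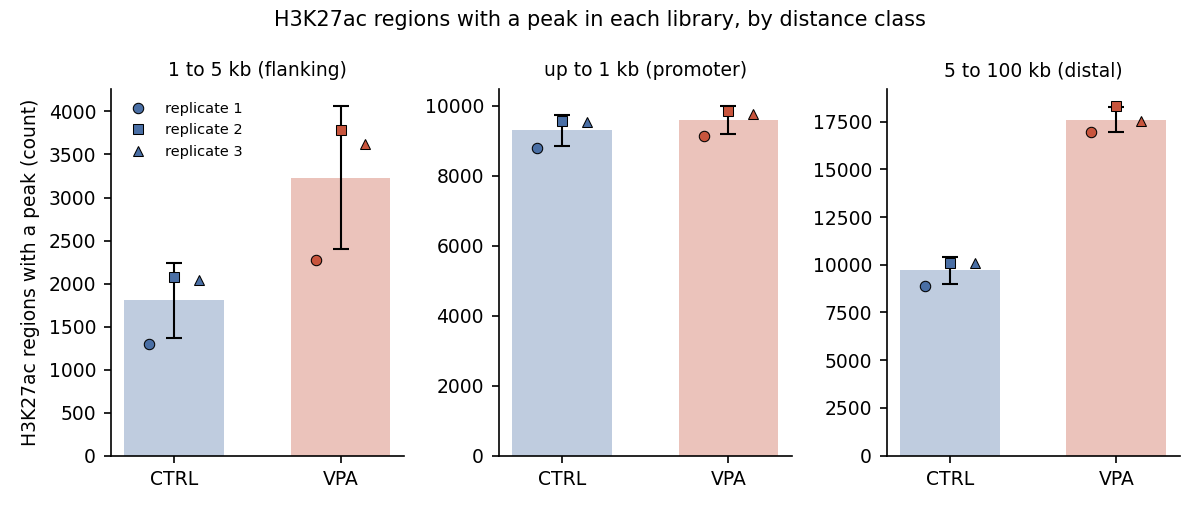
Number of H3K27ac regions with a peak (y axes, starting at 0) in the 3 CTRL and 3 VPA libraries, for flanking regions, promoter regions and distal regions. Bars show group means, error bars the SD (n = 3) and symbols the single libraries. Flanking and distal counts do not overlap between treatments, whereas promoter counts do.

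The ratio of VPA to CTRL at flanking regions was close to that at distal regions and above that at promoters. A peak was present at 9294 ± 439 promoter regions in CTRL against 9583 ± 390 in VPA (SD, n = 3), a ratio of 1.03, and these groups overlapped. There were 10103 promoter regions in all, so their ratio had little room to rise. The contrast with promoters therefore cannot show whether promoters responded less. At distal regions the counts were 9704 ± 710 and 17602 ± 661, a ratio of 1.81. The log2 ratio of flanking to promoter regions was -2.76, -2.20 and -2.22 in the CTRL libraries and -2.01, -1.38 and -1.43 in the VPA libraries. Those groups did not overlap, and the difference was 0.79 (exact permutation p = 0.1, n = 3). It was 0.75, 0.82 and 0.79 within replicates 1, 2 and 3, so the 3 library pairs gave nearly the same size. With lists of equal length it was 0.20 (exact permutation p = 0.3, n = 3). The log2 ratio of flanking to distal regions was -2.46 ± 0.27 in CTRL against -2.48 ± 0.36 in VPA (SD, n = 3), with overlapping groups (exact permutation p = 1). Flanking regions made up 6.89% ± 1.15 of all occupied regions in CTRL and 8.49% ± 1.67 in VPA (SD, n = 3), and these groups overlapped (exact permutation p = 0.3).

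Peak cover of the space around genes was then measured with no use of regions or classes, a measure added after the values were seen. The bases 1 to 5 kb from a protein-coding TSS came to 131 Mb. Peaks covered 5.10%, 8.35% and 8.17% of them in the CTRL libraries and 7.28%, 12.6% and 11.6% in the VPA libraries. VPA replicate 1 lay below CTRL replicates 2 and 3, so the groups overlapped (exact permutation p = 0.3, n = 3). The ratio of the means was 1.45, against 1.09 for the bases within 1 kb of a TSS. Upstream of the 19111 gene starts, at 3 kb, mean cover was 3.83% in CTRL and 6.19% in VPA. Downstream at the same distance it was 6.93% and 10.6%. At 0.2 kb downstream, near the top of the profile, it was 58.3% and 60.1%.

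**Figure D2:**
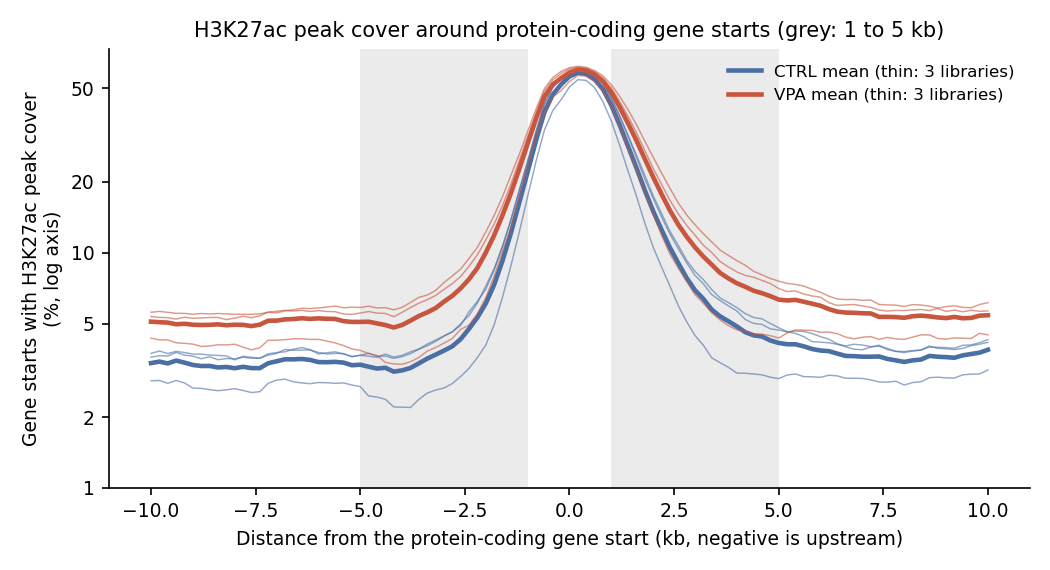
Share of the 19111 protein-coding gene starts (y axis, percent, log axis) with H3K27ac peak cover at each distance (x axis, kb, negative is upstream). Thick lines are the means of 3 libraries, thin lines the single libraries, and grey bands mark 1 to 5 kb. The curves meet near the start and part over the grey bands, where mean cover 3 kb downstream is 6.93% in CTRL and 10.6% in VPA.

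Most flanking regions were not shared by all libraries. All 6 libraries had a peak at 1119 regions (22.2%), against 86.0% of promoter regions and 18.4% of distal regions. A peak was found in a single library at 1762 flanking regions (34.9%), and in 1607 of these it was a VPA library. The number of VPA libraries with a peak exceeded the number of CTRL libraries at 3235 flanking regions and fell short of it at 252. Across all H3K27ac regions those shares were 51.4% and 7.64%, against 64% and 4.99% of flanking regions.

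**Figure D3:**
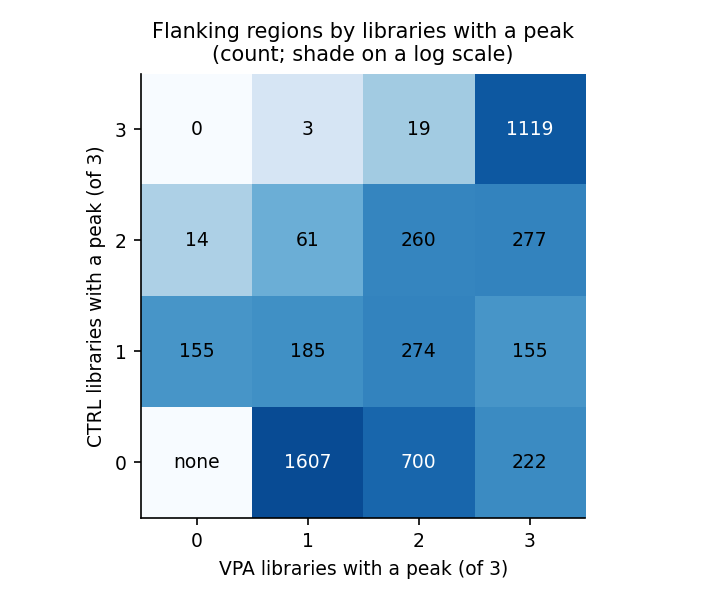
Number of flanking regions by how many of the 3 CTRL libraries (y axis) and 3 VPA libraries (x axis) had a peak there; shading is on a log scale. Regions with no CTRL peak lie along the bottom row (1607, 700 and 222), and 1119 regions in the top right corner had a peak in all 6.

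The strictest form of gain was a peak in all 3 VPA libraries and in none of the CTRL libraries. It was met by 222 flanking regions (4.40%). The same held for 4.12% of all H3K27ac regions, so the flanking share was near this background. It was met by 0.396% of promoter regions and 5.58% of distal regions. The opposite pattern, 3 CTRL libraries and no VPA library, was met by 0 flanking regions, against 0.139% of all regions. These counts carry no test. VPA replicate 1 limited the first: without it 788 flanking regions were only in VPA, and without the replicate 1 libraries of both treatments 821 were only in VPA and another 15 only in CTRL. With lists of equal length the counts were 65 and 10.

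The 6 of these regions named here, 1 a gene, stood highest in the VPA lists by significance, and in each the CTRL libraries had no peak. The FLT3LG region (chr19:49468080-49470357) lay 4.76 kb upstream of the gene for the ligand of the receptor kinase FLT3, inside an intron of another gene. Its fold enrichment was 5.02, 9.32 and 8.93 in VPA replicates 1, 2 and 3. The TNK2 region (chr3:195913875-195915453), 2.84 kb upstream of a gene for a non-receptor tyrosine kinase and 4.98 kb from the nearest start of a protein-coding transcript, had values of 8.68, 7.18 and 5.84. Both overlapped a CTCF peak in all 6 CTCF libraries, as did the PPP1R1B region described below. The S100A6 region did so in 3 and the TTC39C region in none. The CDH1 region (chr16:68731607-68733134) lay 4.92 kb upstream of the gene for E-cadherin, the adhesion molecule of epithelia, with values of 7.15, 6.28 and 5.40 and no CTCF peak. The TTC39C region (chr18:23994184-23995519), in an intron 1.92 kb downstream of the annotated start and 20.1 kb from the MANE Select start, had values of 8.12, 4.95 and 6.57. The region near S100A6, which encodes a calcium-binding protein, had values of 5.66, 4.60 and 4.78. The region near PPP1R1B, whose product DARPP-32 inhibits protein phosphatase 1 in dopamine signalling, had values of 3.43, 4.70 and 6.19. The mean rank of these 6 within the VPA lists ran from the 56th to the 65.9th percentile, so they stood a little above the middle of those lists and not near the top. They kept a peak in 3 VPA and 0 CTRL libraries under the stricter peak threshold and with lists of equal length.

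Distance from the TSS split the flanking regions into an inner and an outer part. In bins of 0.5 kb, the share of regions that all 6 libraries occupied was 77.4% just inside the promoter limit (0.5 to 1 kb), 56.9% from 1 to 1.5 kb, 30.7% from 1.5 to 2 kb and 15.8% from 2 to 2.5 kb. From there to 5 kb it stayed between 13.7% and 18.7%, and from 5 to 5.5 kb, just outside the outer limit, it was 16%. The ratio between treatments had the reverse order. In bins where most regions already had a peak in CTRL, the ratio had little room to rise. The order thus cannot show a graded response. The VPA mean over the CTRL mean was 1.07 from 0.5 to 1 kb, 1.18 from 1 to 1.5 kb and 1.57 from 1.5 to 2 kb. Between 2 and 5 kb it was 1.91 to 2.11, and from 5 to 5.5 kb it was 1.93. No step was seen at 5 kb. The share of regions long enough to cover the TSS itself was 45.9% in the innermost bin and 0.475% in the outermost.

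**Figure D4:**
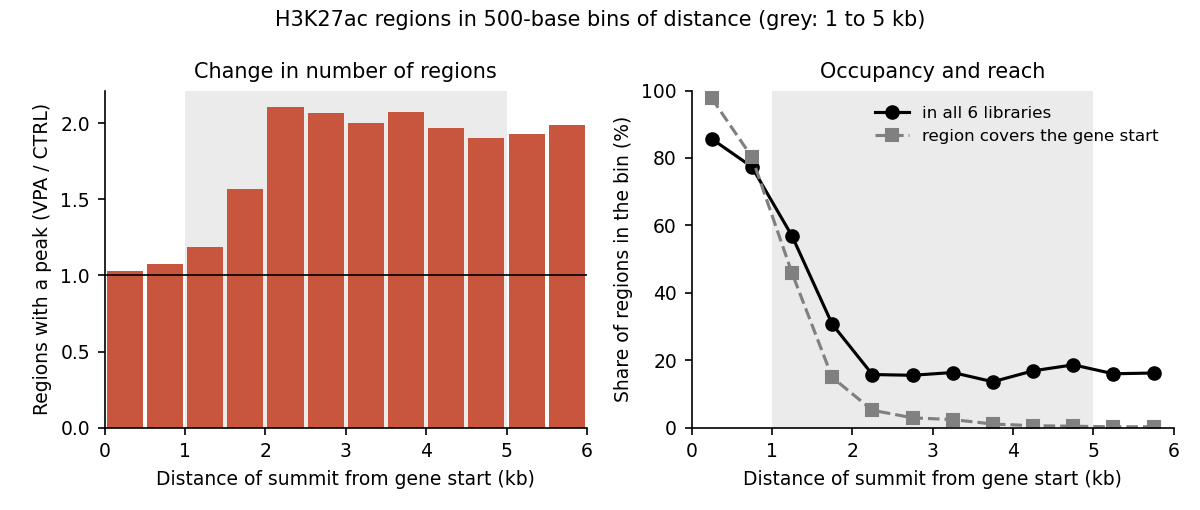
H3K27ac regions over 1 kb from every lncRNA TSS, in bins of 0.5 kb of summit distance from the nearest protein-coding gene start (x axes, kb; grey marks 1 to 5 kb). Left, ratio of the VPA mean to the CTRL mean of regions with a peak (the line marks 1). Right, share of regions occupied in all 6 libraries and share whose interval covers the gene start. The ratio is 1.18 at 1 to 1.5 kb and 1.91 or more beyond 2 kb, while the share in all 6 libraries is 56.9% in the first and 18.7% or less in the latter.

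Most flanking regions lay downstream of the start, and the ratio between treatments was larger for the upstream ones. Of the 5051, 3118 (61.7%) lay downstream and 1933 upstream. By annotation, 3085 summits (61.1%) fell in an intron of a protein-coding gene, 608 (12%) in an exon and 1358 (26.9%) outside protein-coding genes. Upstream regions with a peak numbered 381, 678 and 682 in the CTRL libraries and 841, 1417 and 1370 in the VPA libraries, a ratio of the means of 2.08. Downstream regions numbered 919, 1397 and 1359 in CTRL and 1431, 2368 and 2254 in VPA, a ratio of 1.65. The downstream share of occupied regions was 70.7%, 67.3% and 66.6% in CTRL and 63.0%, 62.6% and 62.2% in VPA. These groups did not overlap, with means of 68.2% ± 2.2 and 62.6% ± 0.4 (SD, n = 3; exact permutation p = 0.1). With the starts of all transcripts used in place of gene starts the difference was -1.37 percentage points, against -5.62, and the groups overlapped (exact permutation p = 0.4, n = 3).

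The intervals were short beside those at promoters. The median width of a flanking region was 804 bases, against 2744 for a promoter region and 731 for a distal region. Flanking regions shared by all 6 libraries had a median width of 2710 bases, and those only in VPA had 1066. Peaks covered 2.22, 3.51 and 3.42 Mb of flanking regions in the CTRL libraries and 3.27, 5.54 and 5.22 Mb in the VPA libraries, and these groups overlapped (exact permutation p = 0.3, n = 3). The covered length per occupied region was 1690 ± 14 bases in CTRL against 1448 ± 15 in VPA (SD, n = 3). All 3 VPA values, 1439 to 1465 bases, were below all 3 CTRL values, 1676 to 1705 (exact permutation p = 0.1, n = 3). This order turned when the lists were cut to equal length. Peaks then covered a mean of 2.93 Mb at a mean of 1606 flanking regions in CTRL. The VPA means were higher by 0.87 Mb and by 241 regions, so the mean length over the mean count was larger in VPA. That difference in length per region was not tested.

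Few occupied flanking regions reached the TSS within one peak. In the CTRL libraries the library's own peak covered the TSS at 17.8%, 16.4% and 16.7% of occupied flanking regions, and in the VPA libraries at 12.9%, 10.6% and 10.9%. The groups did not overlap (means 17.0% ± 0.7 and 11.5% ± 1.3, SD, n = 3; exact permutation p = 0.1). With lists of equal length the order turned, with means of 18.8% and 19.4% and an exact permutation p of 0.4. The number of flanking regions that covered the TSS and had a peak hardly differed between treatments, with 405 to 421 in CTRL and 415 to 422 in VPA. There were 422 such regions in all, so the count had little room to rise. Most regions had an acetylated promoter beside them. A peak of the same library lay within 1 kb of the nearest TSS at 75.2% ± 4.2 of occupied regions in CTRL and 79.9% ± 4.4 in VPA (SD, n = 3), with overlapping groups (exact permutation p = 0.3). Of the 222 regions only in VPA, 158 (71.2%) lay beside a promoter that had a peak in all 3 CTRL libraries, and 33 (14.9%) beside a promoter with no peak in any library. Over all flanking regions these shares were 72.8% and 15.9%.

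The annotated start of a gene is that of its outermost transcript, and many flanking regions lay at the starts of other transcripts. The members were split, after their values were seen, by whether the summit lay within 1 kb of the start of any protein-coding transcript. It did at 863 regions (17.1%), of which 553 lay within 1 kb of a MANE Select start, the representative transcript chosen for each gene. At these 863 regions a peak was found in 600, 703 and 688 in the CTRL libraries and 649, 792 and 773 in the VPA libraries, a ratio of 1.11 with overlapping groups (exact permutation p = 0.3, n = 3). At the other 4188 regions it was found in 700, 1372 and 1353 in CTRL and 1623, 2993 and 2851 in VPA, a ratio of 2.18, and these groups did not overlap (exact permutation p = 0.1, n = 3). In the former group the CTRL mean was already 664 of 863, which left its ratio less room to rise. As the regions come from the same peak lists, the test describes those lists and gives no independent support for a gain. The 863 regions held 588 of the 1119 that all 6 libraries shared, and 9 of the 222 only in VPA.

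Sequence followed the same split. In windows of 300 bases centred on the summit, the median GC content was 69.3% in promoter regions, 52.0% in flanking regions and 51.0% in distal regions. It was 68.0% in the flanking regions near another transcript start and 51.0% in the others. The median number of CpG dinucleotides in the window was 28 in promoter regions, 25 and 6 in those 2 groups of flanking regions, and 6 in distal regions. Regions only in VPA had a median of 6 CpG and those in all 6 libraries 21. Of the regions whose sequence is printed above, CSNK1E and RPL3 lay 0.046 and 0.153 kb from a protein-coding transcript start, with 32 and 11 CpG in the window. RPL3 was thus nearer to the CpG-poor group in sequence, although it lay beside a start. TNK2 and NHLH1 lay 4.98 and 4.57 kb from one, with 6 and 4 CpG. For comparison, windows of the same length placed 3 kb upstream and 3 kb downstream of every gene start had a median GC content of 45% and a median of 3 CpG.

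Short motifs were counted on both strands of the same windows. The GC box GGGCGG, the site of SP-family factors, was present in 63.7% of promoter regions, 57.0% of the flanking regions near another transcript start, 18.4% of the other flanking regions and 16.9% of distal regions, against 26.2% of all regions. The AP-1 motif TGACTCA was present in 4.81% of flanking regions and 5.34% of all regions, the ETS motif CCGGAAG in 2.45% and 2.96%, and the TEAD motif GGAATG in 12% and 12.6%. The CCAAT box (CCAAT) was present in 21.6% and 22.0%, the E-box CACGTG in 4.69% and 4.64%, the homeodomain motif TAATTA in 3.66% and 4.15%, the forkhead motif TGTTTAC in 2.26% and 2.91%, the GATA motif AGATAA in 9.44% and 9.84%, and the NRF1 core GCATGCGC in 1.92% and 1.59%. None of these 9 shares was far from that of all regions, but they pool the 2 groups of flanking regions. Near another transcript start and in the other flanking regions, the ETS motif was present in 5.45% and 1.84%. The homeodomain motif was present in 0.811% and 4.25%, the GATA motif in 4.06% and 10.6%, and the E-box in 4.52% and 4.73%.

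CTCF, an architectural protein that helps to form chromatin loops and domain borders, was mapped in the same cells. A CTCF peak overlapped 22.9%, 28.7% and 27.6% of the flanking regions in the CTRL CTCF libraries and 23.2%, 28.1% and 26.9% in the VPA CTCF libraries. The groups overlapped, with means of 26.4% ± 3.1 and 26.1% ± 2.5 (SD, n = 3; exact permutation p = 0.8). The overlap was 48.7% ± 6.8 for promoter regions and 23.2% ± 1.9 for distal regions in CTRL, and 50.7% ± 6.1 for the flanking regions in all 6 H3K27ac libraries. Wider regions have more room for an overlap. At the same 5051 regions, a CTCF peak was present at 1334 ± 155 in CTRL against 1317 ± 128 in VPA (SD, n = 3), a log2 change of -0.02, against 0.83 for H3K27ac. These regions were chosen by H3K27ac peaks alone, and 2529 had one in VPA and none in CTRL, against 169 the other way. The set thus holds many H3K27ac gains by its making, and the comparison cannot decide whether the antibodies differ. The difference of 0.85 between the antibodies was added after the values were seen. It had p = 0.08 in an exact permutation test over 400 assignments, in which the smallest p is 0.005. Without CTCF CTRL replicate 1 it was 0.95 (exact permutation p = 0.025). Without any other single library it lay between 0.63 and 1.09, with exact permutation p from 0.055 to 0.165. With the replicate block the exact p was 0.25, the smallest that 3 pairs can give, and with lists of equal length the difference was 0.18 (exact permutation p = 0.415).

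At the 1119 flanking regions that all 6 libraries shared, peak heights of the treatments overlapped. Median fold enrichment was 6.41, 15.3 and 15.2 in the CTRL libraries and 6.66, 14.2 and 14.5 in the VPA libraries. The spread between replicate 1 and the others was far larger than that between treatments, and the groups overlapped (exact permutation p = 0.6, n = 3). Promoter regions in all 6 libraries had medians of 9.43, 27.1 and 24.9 in CTRL and 8.32, 21.3 and 21.4 in VPA. The median log2 fold enrichment of flanking regions was below that of promoters by 0.70 ± 0.13 in CTRL and 0.49 ± 0.15 in VPA (SD, n = 3). This distance was smaller in VPA within each replicate number, but the groups overlapped (exact permutation p = 0.3). In bulk chromatin, a lower level in every cell and the mark in fewer cells cannot be told apart.

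A linear model (limma, moderated across the 18407 regions that all 6 libraries shared) was fitted to log2 fold enrichment. Across all regions the median log2 change from CTRL to VPA was -0.14, and the median of the flanking regions was -0.10, which is 0.04 above it. The medians of promoter and distal regions were -0.26 and 0.09. No region passed an adjusted p of 0.05 in the model without a replicate block (0% of all regions), and at an unadjusted p under 0.05 18 flanking regions (1.61%) were higher and 1 (0.0894%) lower in VPA, against 1.37% and 0.261% of all regions. That balance turned when each library was centred on its median, with 36 higher and 93 lower (3.22% and 8.31%, against 2.08% and 5.93% of all regions). It also turned without CTRL replicate 1, with 30 higher and 95 lower (2.22% and 7.04%, against 2.68% and 4.94%). Since libraries of the same replicate number deviated together, the model was also fitted with the replicate number as a block. With the replicate block, 67 flanking regions (5.99%) were higher and 157 (14.0%) lower in VPA at an adjusted p under 0.05. Of all 18407 regions, 4.73% were higher and 11.8% lower, so both flanking shares were near the background. Values recovered as summit coverage in place of fold enrichment gave 60 higher (5.36%) and 192 lower (17.2%) without the block, against 4.04% and 13.3% of all regions. With the block on coverage 161 (14.4%) were higher and 564 (50.4%) lower, against 12.2% and 53.7% of all regions, and with each library centred as well 332 (29.7%) and 380 (34.0%), against 24.9% and 35.3%. The block with centred fold enrichment gave 84 (7.51%) and 120 (10.7%), against 6.45% and 8.57%. Without the replicate 1 libraries 51 (3.19%) of the flanking regions tested were higher and 111 (6.95%) lower, against 2.79% and 6.19%. The flanking counts thus moved with those of all regions from one setting to the next.

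The split by transcript starts also divided these changes. Among the 588 regions near another transcript start, the replicate block model called 11 higher (1.87%) and 114 lower (19.4%), and the median log2 change was -0.27. Among the other 531 it called 56 higher (10.5%) and 43 lower (8.10%), and the median log2 change was 0.12. The shares over all regions were 4.73% higher and 11.8% lower. Median fold enrichment of the 588 was 8.74, 26.2 and 24.4 in the CTRL libraries and 7.84, 20.2 and 20.7 in the VPA libraries. That of the 531 was 4.70, 7.38 and 7.56 in CTRL and 5.46, 8.27 and 8.57 in VPA. Within each replicate number the former group was lower and the latter higher after VPA. On the coverage scale the medians were -0.42 and 0.02, against -0.28 over all regions. With each library centred on its median they were -0.18 and 0.21 for fold enrichment, and -0.18 and 0.26 for coverage. The former was negative and the latter positive on every scale. Only the uncentred coverage median of the latter was under 0.1 in size.

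Without any model, fold enrichment was higher in all 3 VPA libraries than in all 3 CTRL libraries at 75 of the 1119 regions (6.70%), against 4.53% of all regions. It was lower in all 3 at 9 regions (0.804%), against 1.56% of all regions. All 9 of the lower and 72 of the 75 higher regions lay over 1 kb from the start of every protein-coding transcript, as did 531 of the 1119. Among the other 588, 0 were lower in all 3, although the replicate block model called 114 of them lower. Their CTRL medians were 8.74 in replicate 1 against 26.2 and 24.4, a spread that makes separate groups harder to reach. The part of this spread in the split was not tested.

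The 4 largest differences upward among the flanking regions whose groups did not overlap were near ARRDC1, ACTB, N4BP2 and DNAAF9. The ARRDC1 region (chr9:137601352-137603543), 3.71 kb upstream of a gene for an arrestin-domain protein of vesicle budding, had fold enrichments of 1.91, 2.45 and 3.69 in CTRL and 4.77, 11.7 and 8.07 in VPA. The log2 change was 1.57 ± 0.44 (SE), with a limma adjusted p of 1.00 without the block and 0.00203 with the replicate block. The ACTB region (chr7:5561690-5565196) had values of 2.29, 4.30 and 6.34 in CTRL and 6.49, 10.9 and 15.9 in VPA, a log2 change of 1.39. ACTB encodes beta-actin, but the summit lay 31.8 kb from the start of its MANE Select transcript. It lay 1.49 kb downstream of the annotated gene start and 0.381 kb from the nearest start of a protein-coding transcript. The N4BP2 region, 2.42 kb upstream, had values of 3.79, 3.75 and 2.69 in CTRL and 9.08, 5.94 and 11.3 in VPA. The DNAAF9 region, 1.56 kb upstream, had values of 4.61, 17.5 and 14.99 in CTRL and 32.8, 27.3 and 20.4 in VPA. With the replicate block, the limma adjusted p was 0.00200 for ACTB, 0.00482 for N4BP2 and 0.0125 for DNAAF9. CTRL replicate 1 weighed on the DNAAF9 change, which was 1.31 with all libraries, 0.70 without that library and 0.54 without the replicate 1 libraries of both treatments (limma adjusted p = 0.207). On the coverage scale it was 0.22 (limma adjusted p = 0.454 without the block and 0.0241 with the replicate block). The other 3 kept a limma adjusted p under 0.05 without the replicate 1 libraries.

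Among the flanking regions whose groups did not overlap, the 4 largest differences downward were near PARP16, NHLH1, GNMT and SPINK9. Some regions with overlapping groups had larger falls, with a log2 change of -1.24 near FOXP1. The PARP16 region (chr15:65295214-65298380) lay in an intron of the gene for an ADP-ribosyltransferase of the endoplasmic reticulum, 4.87 kb downstream of the annotated gene start and 8.87 kb from the nearest start of a protein-coding transcript. It had values of 26.7, 18.2 and 23.3 in CTRL and 6.24, 11.7 and 15.8 in VPA. Its log2 change was -1.10 ± 0.70 (SE), with a limma adjusted p of 1.00 without the block and 0.0103 with the replicate block. The NHLH1 region (chr1:160361455-160363487), 4.57 kb upstream of a gene for a basic helix-loop-helix factor of neuronal precursors, had values of 9.46, 8.77 and 7.56 in CTRL and 4.56, 5.97 and 5.22 in VPA, with an adjusted limma p of 0.0450 with the replicate block. The region 4.03 kb upstream of GNMT, which encodes glycine N-methyltransferase, had values of 11.5, 8.07 and 13.7 in CTRL and 6.59, 7.69 and 6.24 in VPA. The region near SPINK9, a serine protease inhibitor gene, had values of 12.3, 11.2 and 13.0 in CTRL and 6.20, 8.53 and 9.47 in VPA. For GNMT and SPINK9 the limma adjusted p with the replicate block was 0.0654 and 0.0674. Without the replicate 1 libraries neither PARP16 nor NHLH1 passed (limma adjusted p = 0.172 and 0.283). On the coverage scale the log2 change was -0.46 at PARP16, and at SPINK9 it was -0.16, against -0.61 in fold enrichment.

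The 4 highest regions by mean fold enrichment lay at the starts of other transcripts, all within 0.264 kb of a transcript start. The CSNK1E region (chr22:38313519-38320270), at a casein kinase gene of the circadian clock, had values of 35.8, 118 and 114 in CTRL and 25.6, 54.9 and 70.4 in VPA. The RPL3 region (chr22:39314921-39321945), at a gene for a protein of the large ribosomal subunit, had values of 45.5, 123 and 104 in CTRL and 24.6, 48.4 and 49.7 in VPA. The region at HNRNPUL1, which encodes an RNA-binding protein, had values of 32.6, 93.1 and 100.2 in CTRL and 29.8, 64.5 and 45.8 in VPA. The region at CCT7, which encodes a chaperonin subunit, had values of 35.7, 102 and 102 in CTRL and 25.2, 40.5 and 46.9 in VPA. In each of these 4 regions the VPA value was below the CTRL value of the same replicate number, while the groups overlapped through replicate 1. With the replicate block, RPL3, CCT7 and CSNK1E passed the test (limma adjusted p = 0.00341, 0.00728 and 0.0217) and HNRNPUL1 did not (limma adjusted p = 0.0699).

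**Figure D5:**
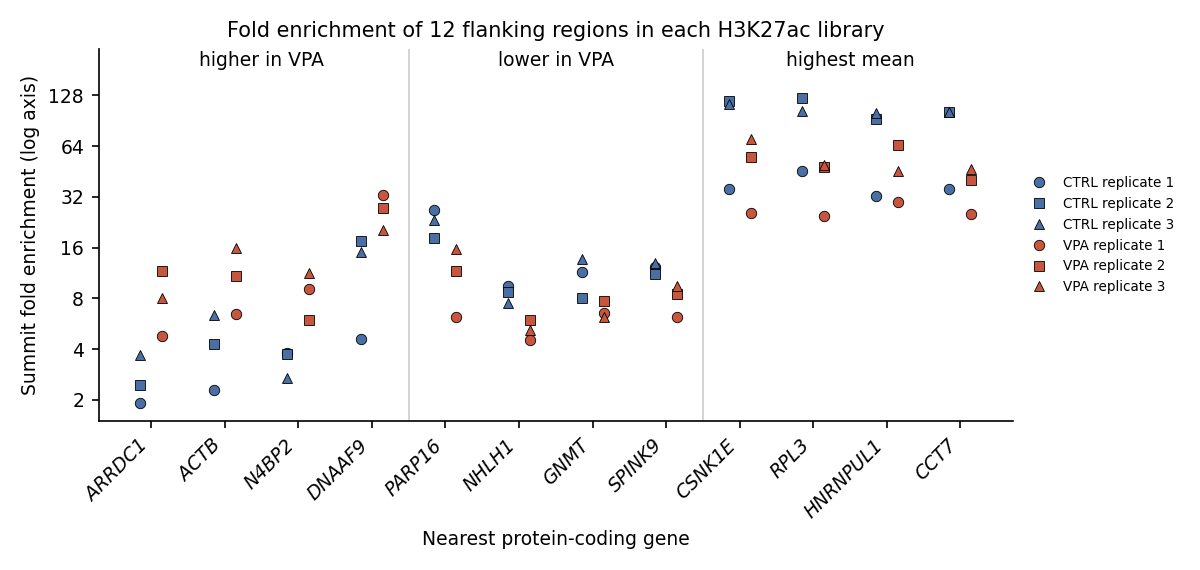
Summit fold enrichment (y axis, log axis) in each H3K27ac library at 12 flanking regions with a peak in all 6, named by the nearest protein-coding gene (x axis). Shown are the 4 largest differences upward and the 4 largest downward among regions whose groups did not overlap, and the 4 highest means. Colour gives the treatment and symbol the replicate. In the first 8 regions the treatments do not overlap; in the last 4 both replicate 1 libraries lie below 50 and the other CTRL libraries between 93 and 123.

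The widest flanking regions lay at HOXB5, FOXC1 and ID3. The HOXB5 region (chr17:48584211-48606888) was 22678 bases wide and the FOXC1 region (chr6:1600356-1619206) 18851 bases, at genes for a homeobox and a forkhead transcription factor. The ID3 region (chr1:23547831-23565821), at the gene for an inhibitor of basic helix-loop-helix factors, was 17991 bases wide. All 3 had a peak in every H3K27ac library, covered the TSS and overlapped a CTCF peak in all 6 CTCF libraries. Fold enrichment at FOXC1 was 29.4, 77.9 and 109.7 in CTRL and 17.1, 49.5 and 40.3 in VPA, with a limma adjusted p of 0.00757 with the replicate block. At ID3 it was 17.2, 76.6 and 54.1 in CTRL and 13.8, 32.6 and 34.7 in VPA (limma adjusted p = 0.0264 with the replicate block), and at HOXB5 31.3, 43.7 and 44.9 in CTRL and 22.0, 31.2 and 33.6 in VPA (limma adjusted p = 0.0957 with the replicate block).

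The flanking regions had 4263 different nearest genes, 22.3% of the protein-coding genes by symbol, of which 627 had 2 regions and 76 had 3 or more. DNAJB1, which encodes an HSP40 co-chaperone, and QSOX2, a sulfhydryl oxidase gene, had the most, with 5 each, and no region of theirs was occupied in all 6 libraries. The gene lists below are described beside all flanking regions. Of these, all 6 libraries shared 22.2%, and 64% had a peak in more VPA than CTRL libraries. Calls with the replicate block are read against 4.73% higher and 11.8% lower of all regions tested. The regions named below at BRD3, SIRT7, EEF1A1, FOXP1, NLGN1, KIF1A, ATP1B1, SCN8A and SEMA3C lay within 0.695 kb of a protein-coding transcript start. Of the shared flanking regions near another transcript start, 1.87% were higher and 19.4% lower.

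Genes of histone acetylation and deacetylation included 12 of 29 with a flanking region (41.4%). Of their 16 regions, 12 (75%) had a peak in more VPA than CTRL libraries and none in more CTRL libraries. The region at BRD3, which encodes a bromodomain reader of acetylated histones, had fold enrichments of 11.1, 53.9 and 50.8 in CTRL and 7.47, 35.2 and 29.3 in VPA (limma adjusted p = 0.0276 with the replicate block, and 0.0762 without the replicate 1 libraries). The region at SIRT7, which encodes an NAD-dependent deacetylase, had values of 2.99, 7.42 and 7.77 in CTRL and 3.32, 11.6 and 9.74 in VPA (limma adjusted p = 0.276 with the replicate block).

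Housekeeping genes had a flanking region at 11 of 24 (45.8%). Of their 14 regions, 6 were in all 6 libraries, with a median log2 change of -0.79, and 5 had a peak in more VPA than CTRL libraries. With the replicate block 4 of the 6 were lower and 1 higher, against 11.8% and 4.73% of all regions. Near another transcript start these shares were 19.4% and 1.87% of flanking regions. The region at EEF1A1, the gene for a translation elongation factor, had values of 26.1, 98.6 and 72.8 in CTRL and 13.1, 48.7 and 39.3 in VPA (limma adjusted p = 0.00466 with the replicate block). The region 4.42 kb upstream of HSPA8, a constitutive chaperone gene, was only in VPA, with values of 3.20, 3.13 and 2.66.

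Developmental transcription factors had a flanking region at 8 of 32 genes (25%), and 6 of their 9 regions were in all 6 libraries, with a median log2 change of -0.88. With the replicate block 4 of the 6 were lower and 0 higher, against 11.8% and 4.73% of all regions. Near another transcript start these shares were 19.4% and 1.87% of flanking regions. The region at FOXP1, a forkhead factor gene, had values of 21.7, 86.6 and 52.1 in CTRL and 10.3, 20.8 and 34.6 in VPA (limma adjusted p = 0.00373 with the replicate block).

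Extracellular matrix genes had no flanking region shared by all 6 libraries. They had a flanking region at 6 of 27 genes, and all 7 of their regions had a peak in more VPA than CTRL libraries. The region 2.76 kb upstream of HSPG2, the perlecan gene, was only in VPA, with values of 3.77, 4.21 and 3.69. The region 4.14 kb downstream of the COL3A1 start, at the gene for type III collagen, had a peak in CTRL replicate 3 (4.44) and in all 3 VPA libraries (3.85, 9.49 and 6.44). The region 2.80 kb upstream of AGRN, the agrin gene, had a peak in VPA replicates 2 and 3 (3.37 and 2.62) and in no CTRL library.

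Neuronal and transport lists held few members. Synapse organization genes had a flanking region at 4 of 26 genes. The region at NLGN1, a postsynaptic adhesion gene, had values of 14.9, 30.3 and 34.9 in CTRL and 7.34, 14.7 and 16.2 in VPA and was lower with the replicate block (limma adjusted p = 0.00311). The region at KIF1A, the gene for a motor of synaptic vesicle precursors, had values of 1.91, 6.86 and 6.67 in CTRL and 3.58, 10.1 and 11.9 in VPA and was higher with the replicate block (limma adjusted p = 0.0338). Its log2 change of 0.77 was 0.16 without CTRL replicate 1, 0.44 without VPA replicate 3 and 1.302 without VPA replicate 1, and it did not pass without the replicate 1 libraries (limma adjusted p = 0.154). The region 2.07 kb upstream of HOMER1, a postsynaptic scaffold gene, had values of 3.97, 5.34 and 8.0 in CTRL and 3.88, 13.5 and 8.66 in VPA, which did not pass.

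Ion channel and transporter genes had a flanking region at 6 of 27 genes, and chemotaxis and axon guidance genes at 5 of 25. At ATP1B1, which encodes a subunit of the sodium pump, values were 8.54, 31.1 and 39.3 in CTRL and 7.77, 20.6 and 18.1 in VPA. At SCN8A, a sodium channel gene, they were 2.61, 8.29 and 7.99 in CTRL and 5.33, 7.02 and 11.9 in VPA. The region at SEMA3C, a secreted guidance factor gene, had values of 7.16, 15.2 and 14.3 in CTRL and 5.23, 21.6 and 10.6 in VPA, and the region upstream of SEMA3F, of the same family, had 1.76, 6.62 and 5.77 in CTRL and 2.85, 6.48 and 5.60 in VPA. The region upstream of SLIT2, another guidance gene, had a peak in replicates 2 and 3 of both treatments, with values of 6.89 and 2.89 in CTRL and 6.87 and 4.27 in VPA. None of the regions in these 2 lists passed the test with the replicate block.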

How the data were processed

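ChIP-seq of H3K27ac and CTCF gave 12 deposited peak lists, 3 for each antibody and treatment. The authors aligned paired reads to hg38 with Bowtie2 and called peaks for each library with MACS3 (3.0.0a7 per the labels) at a q-value of 0.05. Use of input in calling, and the treatment of duplicates and of reads with several alignments, are not given in the sources used here. Each deposited list gives an interval, a score, a fold enrichment (ratio of summit coverage to local background), a −log10 p-value, a −log10 q-value and a summit position, on chromosomes 1 to 22. The score was not used. The whole-fragment coverage of a summit was recovered from the deposited fold enrichment and −log10 p-value.

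Peaks were merged and placed by the nearest gene start (19111 protein-coding and 18390 lncRNA genes, GENCODE release 44). The highest peak in a library gave a region its value. Libraries were compared by exact two-sided permutation tests over 20 assignments, and fold enrichment by limma 3.58.1 (R 4.3.3, trend) on log2 values with no pseudocount and Benjamini-Hochberg adjustment over all regions, checked on simulated data. Deviations of libraries with the same replicate number correlated at 0.87, 0.59 and 0.59 (replicates 1, 2 and 3), so a replicate block was fitted beside the main model. Replicate 2 of one treatment correlated with replicate 3 of the other at 0.61 and 0.55, so the block separates mainly replicate 1. No 2 H3K27ac lists shared more than 0.0135% of their intervals.

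The members and gene lists were chosen with earlier results of these data known. Named regions were, 1 a gene, the 6 highest-ranked only in VPA, the 4 largest changes in each direction with groups that did not overlap (none passed the unblocked test), the 4 highest, the 3 widest and up to 3 for each gene list. Some of the regions and sequences so chosen are not reported here. The alternatives were stricter peaks (−log10 q of at least 3), lists of equal length, a minimum cover of 25% of the region, starts of all transcripts, regions that do not cover the TSS, recovered coverage, centring, each library left out and the replicate block.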

Additional observations from a re-analysis of the deposited data

How the results depend on the processing

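With each library left out in turn, the difference in flanking regions with a peak stayed between 1143 and 1899 regions and the log2 flanking to promoter ratio between 0.61 and 0.99. The log2 flanking to distal difference ranged from -0.19 to 0.18, the median log2 fold enrichment from -0.28 to 0.34 and the CTCF overlap from -2.09 to 1.08 percentage points, so none of these 3 had a stable sign. Regions only in VPA ranged from 251 to 788, regions only in CTRL from 0 to 14, and the difference between antibodies from 0.63 to 1.09. With lists of equal length the flanking to distal difference was 0.079, the reach to the TSS 0.63 and the CTCF overlap 0.68 percentage points, and the counts only in VPA and only in CTRL were 65 and 10. With all transcript starts the flanking to distal difference was 0.17 and the median log2 fold enrichment 0.18, with counts of 336 and 7. Without regions that cover the TSS these differences were 0.16 and 0.10, and without the replicate 1 libraries 0.023 and 0.16, with counts of 821 and 15. The limma counts (higher, lower) were 0 and 0 in the main model, 67 and 157 with the replicate block, 84 and 120 with the block and centring, 60 and 192 for recovered coverage, 161 and 564 with the block on coverage, 332 and 380 with the block on centred coverage, and 51 and 111 without the replicate 1 libraries. The limma counts stayed at 0 and 0 with each library left out. Of all regions, 12.2% were higher and 53.7% lower with the block on coverage, and 24.9% and 35.3% with the block on centred coverage. Without the replicate 1 libraries these shares were 2.79% and 6.19%, and the other shares are given above. The replicate block left the direction of each exact comparison as it was, with a smallest possible p of 0.25. The fall at SPINK9 (-0.61) was -0.16 on coverage and turned to 0.081 with the block on centred coverage. Log2 changes also turned sign for SIRT7 (-0.0086 on coverage, with and without the block), SEMA3C (0.037 without the replicate 1 libraries) and SEMA3F (-0.037 without those libraries, and -0.00033 on coverage). With single libraries left out they ranged from -1.40 to 0.045 for BRD3, -0.073 to 0.93 for SIRT7, -0.092 to 0.74 for SCN8A, -0.64 to 0.38 for SEMA3C and -0.40 to 0.57 for SEMA3F. Among regions that passed with the block, the change without it moved by over 1.5 times at CSNK1E (-1.33 to -0.33), FOXC1 (-1.51 to -0.50), ID3 (-1.36 to -0.28), EEF1A1 (-1.53 to -0.39), FOXP1 (-1.78 to -0.78), NLGN1 (-1.43 to -0.70), CCT7 (-1.49 to -0.72), PARP16 (-1.40 to -0.73), DNAAF9 (0.70 to 1.67) and KIF1A (0.16 to 1.302). In each of the 10 the library left out was replicate 1 of CTRL or VPA, and at CSNK1E, FOXC1, ID3, EEF1A1, FOXP1 and KIF1A also another. The causes were not tested. The lists hold no read totals, and a region with no peak is one that did not pass the authors' threshold at this depth.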

Other observations

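The word GGATTACAG, which occurs in many Alu repeats, was searched on both strands of the 300 bases around each summit after sequences at the summits had been seen. It was present in 42.3% of the 222 flanking regions only in VPA, in 25.5% of all flanking regions, in 11.6% of those with a peak in all 6 libraries and in 2.09% of promoter regions. Of the 222, 213 lay over 1 kb from every protein-coding transcript start. Among all flanking regions so placed the share was 29.8%, and among those of them in all 6 libraries 22.8%. In all H3K27ac regions the share was 18.3%, in distal regions 26.0%, and in windows of the same length 3 kb to either side of every protein-coding gene start 14.4%. The NRF1 core GCATGCGC was present in 4.95% of the regions only in VPA and in 1.59% of all regions. Its share was 0.940% in promoter regions and 2.02% in distal regions. Whether it lay in the same windows as the Alu word was not tested. Part of an Alu repeat can be shared by many places in the genome, and how reads with several alignments were handled is not given in the sources used here. Its part in these results was not tested.

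Of the 169 flanking regions with a peak in at least 1 CTRL library and in no VPA library, 155 had it in a single library. Their median width was 407 bases, against 521 for the 2529 regions with a VPA peak and no CTRL peak. Of the HSPA8 and HSPG2 regions that were only in VPA, neither kept a peak in all 3 VPA libraries when the lists were cut to equal length.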
